A study of Mus musculus with 21 samples.

Results

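The genes described here were Trp53, which encodes the transcription factor p53, Cdkn1a, which encodes the cyclin-dependent kinase inhibitor p21, and 8 further genes that p53 is known to activate: Mdm2, Ccng1, Gdf15, Btg2, Bax, Phlda3, Sesn2 and Trp53inp1. The list was chosen by name, and its 10 members were all found among the 54123 genes with a matched transcript. RNA-Seq was performed on polymorphonuclear neutrophils (PMNs) and renal tubular epithelial cells (TECs), both isolated from wildtype mice 24 hours after surgery. The study's text does not state the tissue from which the sequenced PMNs were taken. The operation was either a sham or ischemia-reperfusion injury (IRI), a temporary clamping of the kidney's vessels. It came after remote ischemic preconditioning (RIPC), in which a cuff stopped the blood flow of a hind limb several times, or after a control procedure with the cuff inflated too weakly to stop it. For PMNs there were 2 libraries after sham surgery with the control procedure, 3 after sham surgery with RIPC, 2 after IRI with the control procedure and 3 after IRI with RIPC. For TECs the same groups held 3, 3, 2 and 3 libraries. The study's methods describe male mice, and no group carried a transgene or received a further agent. The study describes the libraries of a group as biological replicates, and the labels do not tie a library to an animal, so p-values measure the spread between these 21 libraries.

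p53 is kept at a low level by the ubiquitin ligase Mdm2, and DNA damage or other stress frees it from this control, largely without a change in Trp53 mRNA. Activated p53 binds paired half-sites in DNA and switches on genes that stop the cell cycle, above all Cdkn1a, genes that promote apoptosis such as Bax, and Mdm2 itself, which closes a feedback loop. In the kidney, Cdkn1a is known to be induced in tubules after ischemia, and it can also be induced without p53. In the study, p53 and p21 were addressed in whole kidney soon after RIPC, so the question for these libraries is what their genes showed in sorted cells at the later time.

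Total estimated reads per library, both deposited files added, were between 20881334 and 51624602, with 21479605 to 51624602 in TECs. In PMNs they were 20881334 to 23517048 after sham surgery and 25661853 to 30507235 after IRI, so depth and surgery went together there without overlap. Both files of a library held nearly the same counts, closer than counting noise allows for separate reads, and may be quantifications of the same reads. Every read number given here would then count each read once per file. A value at or under 6 summed reads (3 per file) was therefore treated as not distinct from 0. This limit corresponds to 0.166 to 0.290 CPM, the count divided by the TMM-scaled library size. It covers counting error only, because the libraries were amplified by PCR and carried no molecular identifiers. The summed level of 7 neutrophil markers was 5478 to 29240 CPM in PMN libraries and 1.80 to 110 CPM in TEC libraries. The summed level of 7 proximal tubule markers was 6430 to 11930 CPM in TECs after sham surgery and 1025 to 6167 CPM after IRI. PMN libraries also held macrophage markers (4 genes, 2272 to 6397 CPM after sham surgery and 516 to 1248 CPM after IRI), proximal tubule markers (317 to 2948 CPM after sham surgery and 164 to 301 CPM after IRI) and 5 markers of the distal tubule and collecting duct (115 to 5045 CPM after sham surgery and 43.2 to 563 CPM after IRI). Both highest tubule sums, 2948 and 5045 CPM, belonged to replicate 2 of the PMN sham control group, which had the lowest Cdkn1a and the highest Bax of the sham PMN libraries. Replicates varied widely: edgeR's common biological coefficient of variation was 1.65 in PMNs and 1.54 in TECs, and several members were at 0 in one library and well above the limit in another of the same group. In TECs, replicate 1 of the sham control group stood apart from the other 5 sham libraries. Its levels of the tubular injury genes Havcr1, Lcn2 and Krt20 were 82.8, 52.8 and 16.7 CPM, where the other 5 reached at most 1.07, 0.821 and 1.41 CPM. The TEC results that rest on this library are therefore given with and without it. Among TEC libraries after IRI, replicate 3 of the RIPC group stood apart, with 6167 CPM of proximal tubule markers where the other 4 had 1025 to 2035 CPM. It held 80.2 CPM of Havcr1 and 0.189 CPM of Lcn2 where the others had at least 400 and 21.1 CPM. Its Krt20, however, was the highest of the TEC libraries at 1491 CPM. Its sum of the injury genes, 1571 CPM, lay within the range of the other IRI libraries (1052 to 1834 CPM). Without it, 714 genes were called for IRI in TECs in place of 363.

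The stretch of DNA upstream of the members is shown first for Cdkn1a. It carried the only pair of exact p53 half-sites in the member windows searched, and its reads were also divided by transcript. RefSeq promoter windows of GRCm38.p6, 250 bases before to 50 bases after a gene's start, were at hand for 9 of the 10 members in 11 windows. They were searched on the gene's strand for the p53 half-site RRRCWWGYYY, where R is A or G, W is A or T and Y is C or T. The reverse complement of these 10 bases is the same pattern. A full site was 2 half-sites separated by at most 13 bases, and no mismatch was allowed. A full site was found in 24 of 32851 promoters (0.0731%), and among the members only at the upstream start of Cdkn1a, from 73 to 42 bases before it. This stretch lies on the plus strand at chr17:29090886-29090957 and is printed 5′ to 3′, with the full site in capitals.
Cdkn1a: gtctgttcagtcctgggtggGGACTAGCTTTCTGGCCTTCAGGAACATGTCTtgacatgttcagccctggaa
Single half-sites are more common, being present in 8.36% of all promoters and in 5 of the 11 member windows. Beside the Cdkn1a window they were found before Bax, Mdm2, Ccng1 and Trp53 itself, and these stretches are shown for comparison, each on the strand of its gene with the half-site in capitals.
Bax, chr7:45467070-45467119, minus strand: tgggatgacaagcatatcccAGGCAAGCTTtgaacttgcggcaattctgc
Mdm2, chr10:117710915-117710964, minus strand: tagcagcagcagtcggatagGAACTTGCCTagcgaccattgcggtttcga
Ccng1, chr11:40755442-40755491, minus strand: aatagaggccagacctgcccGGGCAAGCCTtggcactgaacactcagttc
Trp53, chr11:69580264-69580313, plus strand: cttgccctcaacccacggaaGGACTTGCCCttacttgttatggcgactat
The bases right after the second Cdkn1a half-site, and those right before the Ccng1 half-site, miss the pattern at a single base. They are therefore not in capitals, and pairs with such a mismatch were not counted as full sites. The window at the downstream start of Cdkn1a held no half-site. A search for TGANTCA, the AP-1 pattern, matched 7.81% of promoters and none of the 11 member windows, and TGACGTCA, the cyclic AMP response element, matched 1.79% of promoters and the Btg2 window. These matches describe letters in a window and say nothing of whether a factor was bound.

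Compared per transcript length, Cdkn1a had the highest median of the members over all libraries of either cell type. In TECs it was so only through the IRI libraries: after sham surgery Bax (75.4 TPM) and Btg2 (26.1 TPM) had higher medians than Cdkn1a (23.4 TPM). The median TPM of Cdkn1a, a read share corrected for transcript length, was 347 over 10 PMN libraries and 106 over 11 TEC libraries. In PMNs it was followed by Btg2, an antiproliferative cofactor of mRNA decay (164 TPM), Bax, the pore-forming effector of apoptosis (42.3 TPM), and Mdm2 (19.4 TPM). Trp53 had a median of 7.92 TPM, Ccng1, a cyclin G that acts in feedback on p53, 6.57 TPM, Sesn2, a stress-induced inhibitor of mTORC1 signaling, 2.61 TPM and Trp53inp1, a nuclear protein of apoptosis and autophagy, 2.13 TPM. Gdf15, a secreted cytokine of the TGF-β superfamily, had 0.273 TPM, and Phlda3, an inhibitor of Akt, was at 0 in the median PMN library. In TECs the order of medians was Cdkn1a, Bax (79.5 TPM), Btg2 (28.1), Gdf15 (24.9), Trp53 (12.5), Ccng1 (12.3), Mdm2 (8.38), Sesn2 (4.44), Trp53inp1 (1.59) and Phlda3 (0). The ranges of each pair of neighbours in either order overlapped. Phlda3 was above the limit of 6 reads in 1 of 10 PMN and 4 of 11 TEC libraries and did not pass the filter on low counts in PMNs, so 9 members were tested in PMNs and 10 in TECs.

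PMNs and TECs were then compared over all 4 conditions with edgeR's quasi-likelihood test. Btg2 was higher in PMNs (log2 fold change 1.69 ± 0.41 SE, adjusted p = 0.0127) and Gdf15 was lower (log2 fold change -4.29 ± 1.22, adjusted p = 0.0365). These were 2 of 10 members, against 6.87% of all 31769 genes tested. DESeq2 called 4 members, with Cdkn1a and Phlda3 added, and 17.0% of genes. Btg2 averaged 785 CPM in 10 PMN and 239 CPM in 11 TEC libraries, and Gdf15 averaged 6.71 and 62.4 CPM, with ranges that overlapped for both genes. For Gdf15, 5 of 10 PMN libraries were at or under 6 reads, and its adjusted p passed 0.05 when any of 5 libraries was left out, reaching at most 0.0866. Cdkn1a was 1.45 ± 0.45 higher in PMNs on the log2 scale with an adjusted p of 0.0586. In 7 of the 10 other settings that kept all libraries its adjusted p was between 0.00456 and 0.0499, and in the rest it was above that. It depended on single libraries: without replicate 1 of the TEC sham control group the difference was 2.01 (adjusted p = 0.00162), and without replicate 1 of the PMN sham control group it was 0.94 (adjusted p = 0.267). Trp53 gave -0.66 ± 0.81 (adjusted p = 0.966). In bulk RNA, fewer cells of a type and less RNA per cell cannot be told apart. The macrophage and tubule markers in PMN libraries are given above, and their part in these differences was not tested.

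**Figure D1:**
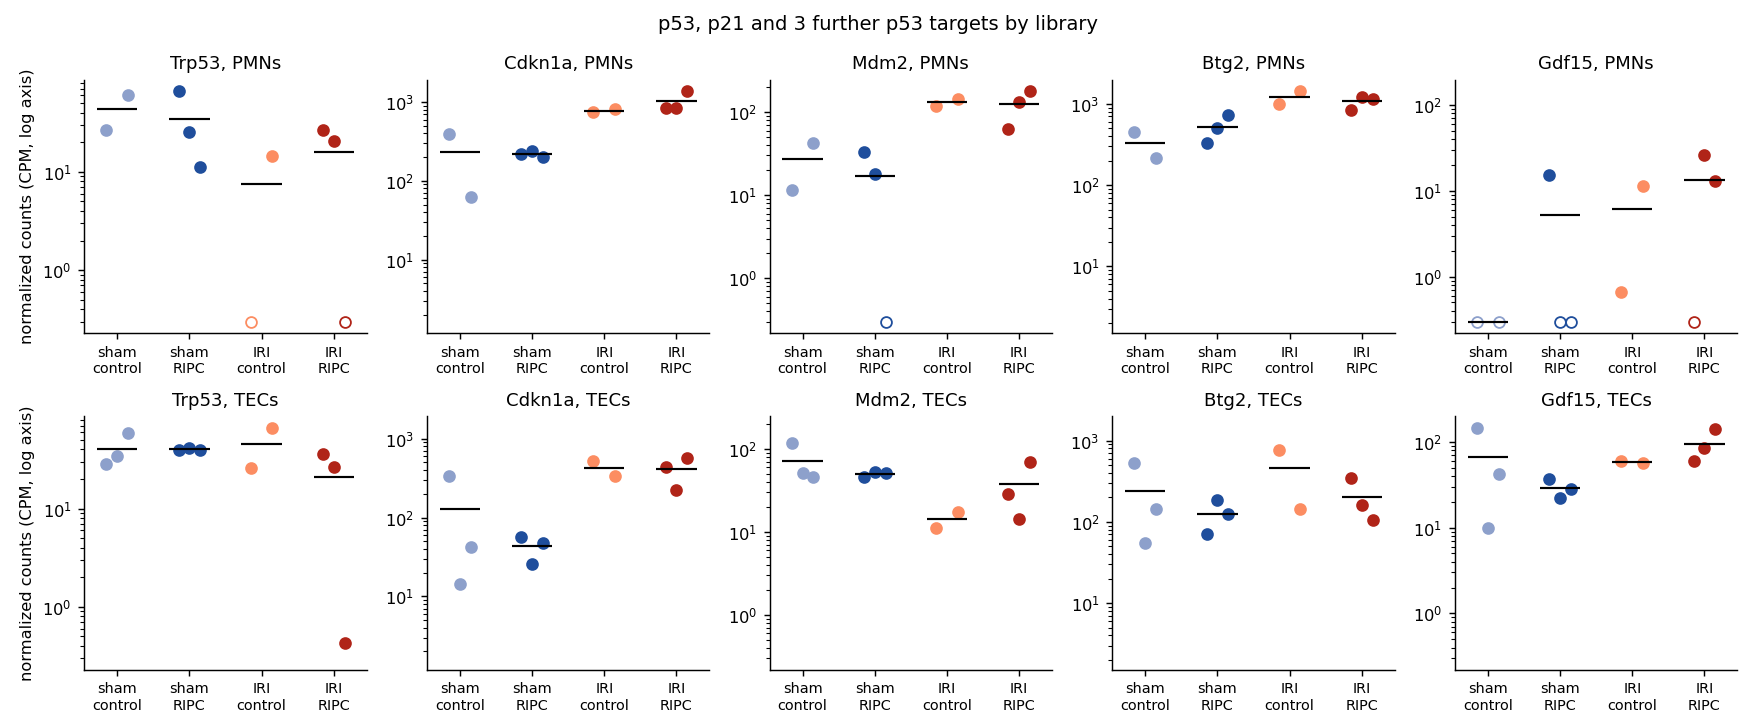
Normalized counts (CPM, log axis) of Trp53, Cdkn1a, Mdm2, Btg2 and Gdf15 in each library, PMNs in the upper and TECs in the lower row, by surgery and preconditioning. Each point is a library, open points lie at or under 0.3 CPM and are drawn at 0.3, and the line is the mean of the points as drawn. In PMNs all 5 IRI libraries lie above all 5 sham libraries for Cdkn1a, Mdm2 and Btg2, and in TECs 1 sham control library lies with the IRI libraries for Cdkn1a.

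After IRI, PMNs had more Cdkn1a, Btg2, Mdm2 and Trp53inp1 mRNA in every library than after sham surgery, whereas Trp53 mRNA did not follow. None of the 9 members tested passed an adjusted p of 0.05 in edgeR, where 0.416% of 25002 genes did. For 4 members all 5 IRI libraries lay above all 5 sham libraries, as they did for 3.43% of genes. At an unadjusted p under 0.05 there were 4 members, against 11.8% of genes. The median log2 difference of the 9 members was 1.98, and that of all genes -0.01. DESeq2 called 2 members, Cdkn1a and Btg2, and 7.77% of genes.

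Cdkn1a (chr17:29090976-29100727, plus strand) measured 397 and 61.8 CPM in the sham control group and 220, 240 and 203 CPM in the sham RIPC group of PMNs. After IRI it measured 742 and 806 CPM in the control group and 840, 851 and 1370 CPM in the RIPC group. The lowest IRI library was thus well above the highest sham library. The mean after IRI was 4.11 times that after sham surgery, and the log2 fold change was 1.98 ± 0.46 (SE, n = 5 and 5, adjusted p = 0.152 by edgeR and 0.00443 by DESeq2). Without replicate 1 of the sham control group, the highest sham library, it was 2.94 with an adjusted p of 0.00448 by edgeR, in a fit that called 1.26% of genes. Without replicate 2, the library rich in tubule markers and the lowest in Cdkn1a, it was 1.65 (adjusted p = 0.0736 by edgeR).

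Btg2 (chr1:134075170-134079120, minus strand) measured 448 and 216 CPM in sham control, 329, 508 and 719 CPM in sham RIPC, 1000 and 1427 CPM in IRI control and 847, 1214 and 1143 CPM in IRI RIPC libraries. The log2 fold change was 1.46 ± 0.31 (adjusted p = 0.121 by edgeR and 0.00356 by DESeq2). Without replicate 1 of the sham control group, the sham library richest in neutrophil markers, it was 1.78, and without replicate 2 it was 1.30. Btg2 and Cdkn1a had the smallest standard errors of the members in this comparison.

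Mdm2 (chr10:117688875-117710758, minus strand) was at 11.6 and 42.8 CPM in sham control and 32.9, 18.0 and 0.242 CPM in sham RIPC libraries of PMNs. After IRI it was at 118 and 143 CPM in the control and 63.4, 133 and 178 CPM in the RIPC group. One sham RIPC library held only 5 reads. The fitted log2 fold change was 2.57 ± 1.01 (adjusted p = 0.410).

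Trp53inp1 (chr4:11156431-11174379, plus strand) was at 5.76, 0, 0.0943, 10.9 and 0 CPM in the 5 sham libraries and at 165, 39.6, 76.0, 69.8 and 114 CPM in the 5 IRI libraries. The groups did not overlap, and 3 of the sham libraries were at or under the limit of 6 reads. On the log2 scale the difference was 4.85 ± 1.96 (adjusted p = 0.413). Sesn2 (chr4:132492032-132510501, minus strand) showed 13.9, 0.233, 0, 0 and 4.11 CPM after sham surgery and 48.4, 13.3, 47.8, 78.3 and 65.0 CPM after IRI, where a single IRI library fell within the sham range. Its log2 fold change was 3.83 ± 1.79 (adjusted p = 0.413). With single libraries left out, the fold changes of Trp53inp1 and Sesn2 ranged from 4.20 to 9.40 and from 3.25 to 7.86.

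The other members of the list did not share this pattern in PMNs. Trp53 (chr11:69580359-69591873, plus strand) was at 26.7 and 60.7 CPM in sham control, 66.2, 25.4 and 11.2 CPM in sham RIPC, 0.166 and 14.6 CPM in IRI control and 27.0, 20.8 and 0.0385 CPM in IRI RIPC libraries. The IRI values lay at or below the middle of the sham range, and 2 of the 5 were under the limit, with 4 and 1 reads. The log2 fold change was -1.83 ± 1.45 (adjusted p = 0.620), and between -4.51 and -1.29 with single libraries left out. The library with the most Cdkn1a, replicate 3 of the IRI RIPC group, was the one with 1 read of Trp53. Bax (chr7:45461697-45466898, minus strand) ranged from 13.2 to 184 CPM after sham surgery and from 10.6 to 85.3 CPM after IRI, with a log2 fold change of -1.27 ± 0.75 (adjusted p = 0.498), which was -0.30 without replicate 2 of the sham control group. Ccng1 (chr11:40748552-40755311, minus strand) ranged from 0 to 100 CPM and from 0 to 107 CPM (log2 fold change -0.12 ± 1.79, adjusted p = 1.00). Gdf15 (chr8:70629393-70632456, minus strand) was above 6 reads in 1 sham and 4 IRI libraries and reached 15.1 and 26.4 CPM (log2 fold change 3.50 ± 2.54, adjusted p = 0.585, and 1.93 to 8.46 with single libraries left out). Phlda3 (chr1:135766119-135769136, plus strand) had at most 12 reads in a PMN library.

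Neutrophil markers moved with surgery in the same libraries. Their sum was 5478 to 23530 CPM after sham surgery and 11220 to 29240 CPM after IRI, macrophage and proximal tubule markers were lower after IRI without overlap, and distal tubule markers overlapped, at the levels given above. The part of these markers in the differences of Cdkn1a, Btg2, Mdm2, Trp53inp1 and Sesn2 was not tested. Total reads were also higher in every IRI library than in every sham library of PMNs, and their part was not tested.

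In TECs, Cdkn1a was the member with the smallest p between IRI and sham surgery. For Gdf15 and Mdm2, IRI and sham libraries overlapped when all were kept. With replicate 1 of the sham control group set aside, the highest sham library for Gdf15, this gene was also higher in every IRI library than in every sham library, and Mdm2 was lower in most. How many of all genes separate after this omission was not counted. Neither Gdf15 nor Mdm2 passed an adjusted p of 0.05 by edgeR in this comparison, with or without that library. No member passed an adjusted p of 0.05 in edgeR, where 1.40% of 25917 genes did, and 0 of 10 members had groups without overlap, against 4.58% of genes. At an unadjusted p under 0.05 there were 2 members, Cdkn1a and Mdm2, in opposite directions, against 15.0% of genes. The median log2 difference of the members was 0.04, and that of all genes 0.15. DESeq2 called 2 members, Cdkn1a and Phlda3, and 8.62% of genes.

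Cdkn1a measured 332, 14.2 and 41.8 CPM in the sham control group and 57.3, 25.4 and 47.8 CPM in the sham RIPC group of TECs. After IRI it measured 518 and 341 CPM in the control group and 442, 220 and 564 CPM in the RIPC group. The overlap came from replicate 1 of the sham control group, the library that also held injury genes. The log2 fold change was 2.48 (95% interval 1.11 to 3.85, SE 0.64, n = 5 and 6, adjusted p = 0.0801 by edgeR and 0.00519 by DESeq2). Without this library the 5 remaining sham libraries reached at most 57.3 CPM, the mean after IRI was 11.2 times theirs, and the log2 fold change was 3.59 with an adjusted p of 0.00270 by edgeR, in a fit that called 1.50% of genes.

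Trp53 in TECs was at 28.3, 34.2 and 58.6 CPM in sham control, 39.6, 41.8 and 39.4 CPM in sham RIPC, 25.6 and 65.6 CPM in IRI control and 36.1, 26.7 and 0.425 CPM in IRI RIPC libraries. The groups overlapped, and the log2 fold change was -0.38 ± 0.77 (adjusted p = 0.910). Replicate 3 of the IRI RIPC group, with 9 reads of Trp53, was the IRI library that stood apart and had the most Cdkn1a of the TEC libraries. In PMNs the library with a single Trp53 read likewise had the most Cdkn1a.

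Mdm2 was at 117, 50.7 and 45.3 CPM in sham control, 46.2, 52.5 and 50.7 CPM in sham RIPC, 11.1 and 17.2 CPM in IRI control and 28.4, 14.2 and 70.1 CPM in IRI RIPC libraries of TECs. Except for the last of these, the library that stood apart in its proximal tubule markers, Havcr1 and Lcn2 but not in Krt20, every IRI library was below every sham library. The log2 fold change was -1.37 ± 0.56 (adjusted p = 0.271), and -1.76 without that library. Gdf15 was at 145, 9.77, 42.2, 36.9, 21.9 and 28.2 CPM after sham surgery and 59.8, 56.5, 59.3, 83.9 and 142 CPM after IRI. Its IRI libraries all lay above the sham libraries other than replicate 1 of the sham control group, and their mean was 2.89 times that of those 5. Its log2 fold change was 0.77 ± 0.59 with all libraries (adjusted p = 0.601) and 1.45 without that library (adjusted p = 0.273).

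Of the other members in TECs, Btg2 ranged from 54.5 to 526 CPM after sham surgery and from 105 to 774 CPM after IRI (log2 fold change 0.81 ± 0.59, adjusted p = 0.577). Trp53inp1 ranged from 4.36 to 106 and from 6.15 to 88.9 CPM (1.12 ± 0.73, adjusted p = 0.522), and Sesn2 from 5.38 to 128 and from 0 to 45.1 CPM (-1.24 ± 1.20, adjusted p = 0.699). Bax ranged from 50.9 to 130 and from 47.2 to 147 CPM (0.24 ± 0.42, adjusted p = 0.882), and Ccng1 from 47.4 to 358 and from 90.4 to 137 CPM (-0.16 ± 0.47, adjusted p = 0.966). Without replicate 1 of the sham control group the values were 1.47 for Btg2 (adjusted p = 0.268), 1.80 for Trp53inp1 (adjusted p = 0.314) and -0.77 for Sesn2 (adjusted p = 0.858). Phlda3 was detected in 3 of 6 sham libraries, at 10.4, 3.71 and 1.995 CPM, and in 1 of 5 IRI libraries, at 17.4 CPM, so its fitted fold change rests on single libraries and is not given. Replicate 1 of the sham control group was the highest sham library for Cdkn1a, Mdm2, Gdf15, Btg2, Bax, Phlda3, Sesn2 and Trp53inp1, and the lowest for Trp53 and Ccng1. Proximal tubule markers were lower and neutrophil markers higher in TECs after IRI, and the part of these in the Cdkn1a and Mdm2 differences was not tested.

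**Figure D2:**
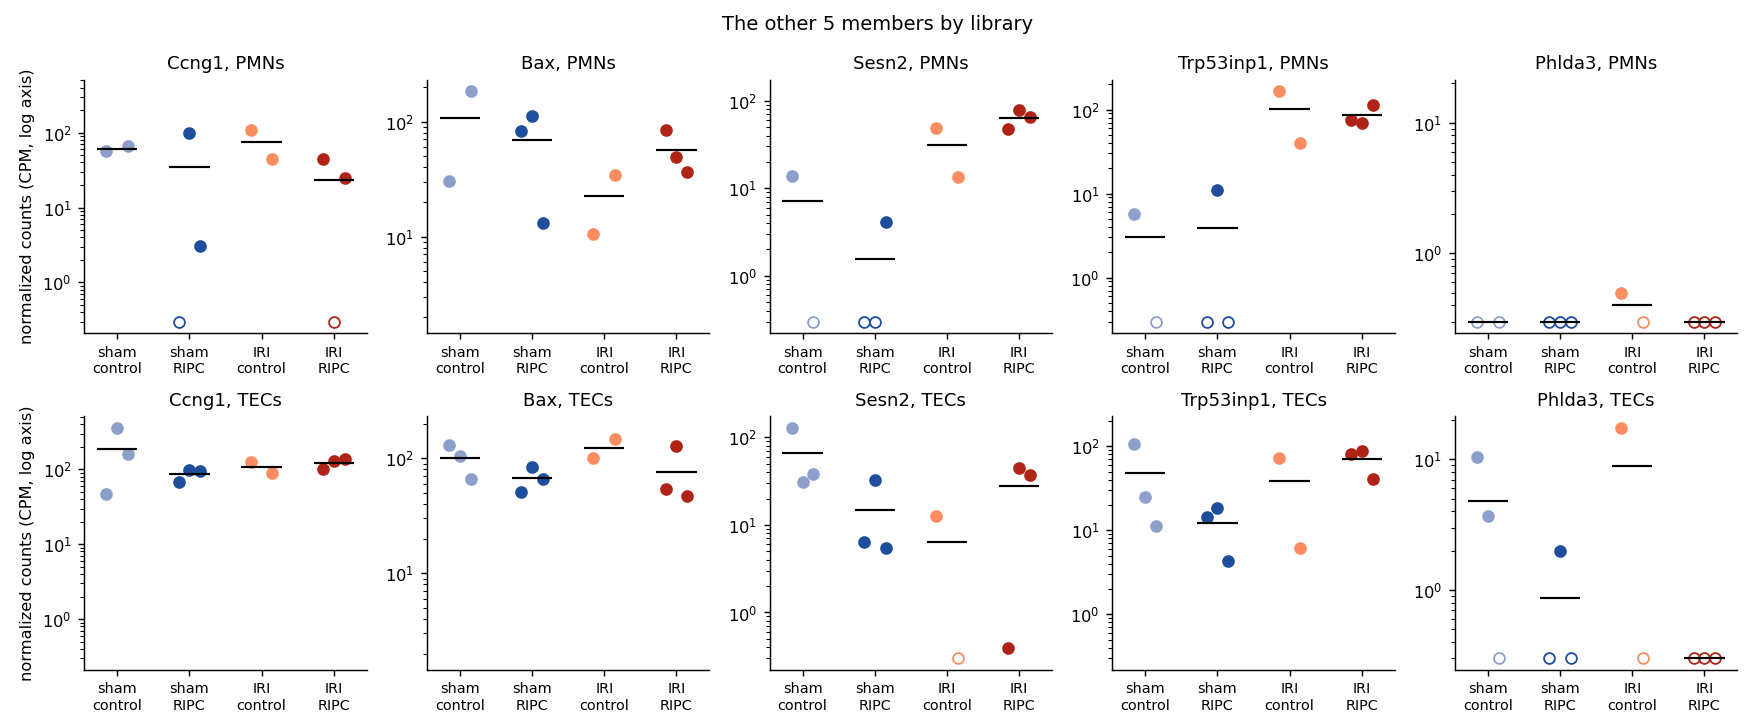
Normalized counts (CPM, log axis) of Ccng1, Bax, Sesn2, Trp53inp1 and Phlda3 in each library, drawn as in the plot of Trp53 and Cdkn1a. Trp53inp1 lies above the sham range in all 5 PMN libraries after IRI, and Phlda3 is at or under 0.3 CPM in most libraries of both cell types.

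When only the libraries without RIPC were compared, with 2 against 2 in PMNs and 2 against 3 in TECs, edgeR called no member. It called 0% of genes in PMNs and 0.00386% in TECs. The log2 fold change of Cdkn1a was 1.75 ± 0.70 in PMNs (adjusted p = 0.736 by edgeR) and 1.73 ± 0.92 in TECs (adjusted p = 0.572 by edgeR). At an unadjusted p under 0.05 there were 2 members in PMNs, Cdkn1a and Btg2, against 4.45% of genes, and 1 in TECs, Mdm2, against 8.59% of genes. DESeq2 called 0 members and 2.93% of genes in PMNs, and Mdm2 and 5.08% of genes in TECs. Without replicate 1 of the sham control group, the PMN value of Cdkn1a was 3.63 (adjusted p = 0.0378 by edgeR), and without replicate 2 it was 1.03 (adjusted p = 1.00), with 1 sham library left in each case and assumed to vary like the other groups. In TECs the value of Cdkn1a was 3.93 without sham control replicate 1 (adjusted p = 0.0701) and 1.22 without sham control replicate 2.

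Whether IRI had a different effect in PMNs than in TECs was tested as a difference of the log2 fold changes in one fit of all 21 libraries. For Mdm2 the difference was 3.92 ± 1.17 (unadjusted p = 0.00322, adjusted p = 0.269 by edgeR), its values after IRI being higher in PMNs and lower in TECs. DESeq2 gave an adjusted p of 0.00431 for it and called 7.54% of genes. For Sesn2 the difference was 5.04 ± 2.22 (adjusted p = 0.453). For Cdkn1a it was -0.52 (95% interval -2.37 to 1.34, adjusted p = 1.00), an interval that holds sizeable differences in both directions. No gene passed an adjusted p of 0.05 in this comparison by edgeR (0%), and 3102 genes (9.76%), 2 members among them, had an unadjusted p under 0.05.

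**Figure D3:**
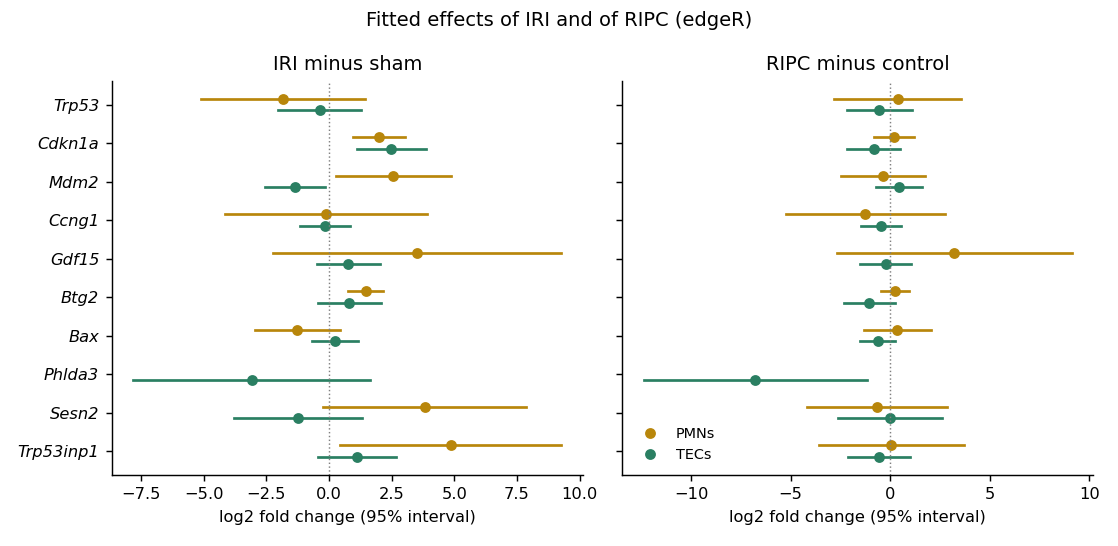
Fitted log2 fold changes (points) and 95% intervals (bars) of the 10 members from edgeR, IRI minus sham surgery on the left and RIPC minus control on the right, for PMNs and TECs. Phlda3 was not tested in PMNs, and its TEC bars rest on single libraries. For Cdkn1a both IRI intervals lie above 0, at 0.95 to 3.01 in PMNs and 1.11 to 3.85 in TECs, and both RIPC intervals include 0.

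RIPC was compared with the control procedure after each kind of surgery and averaged over both. No member was called by edgeR in any of these 6 comparisons, or in the interaction of RIPC and surgery of either cell type. The share of all genes called was 0.004% in PMNs after sham surgery, 0.00386% in TECs after IRI and 0% in the other 4 comparisons and in both interactions. At an unadjusted p under 0.05 there were 0 of 9 members in each PMN comparison (4.60%, 2.72% and 6.53% of genes after sham surgery, after IRI and averaged). In TECs there were 0 of 10 after sham surgery and 1 after IRI and averaged, Phlda3 in both cases (4.53%, 4.35% and 8.30% of genes). In the interactions there were 0 members at that level, against 5.74% of genes in PMNs and 7.21% in TECs. DESeq2 called 0 members in PMNs, where it called 3.27%, 1.70% and 2.95% of genes after sham surgery, after IRI and averaged, and 2.63% in the interaction. In TECs it called 0 members and 1.66% of genes after sham surgery. In the other TEC comparisons it called Phlda3 alone, with 2.70% of genes after IRI, 2.84% averaged and 2.32% in the interaction, and the Phlda3 reads of those libraries came from the few given above.

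The difference of Cdkn1a between RIPC and control in PMNs was -0.05 ± 0.62 on the log2 scale after sham surgery (adjusted p = 1.00), 0.40 ± 0.63 after IRI (adjusted p = 1.00) and 0.17 averaged over surgery (95% interval -0.82 to 1.17, adjusted p = 1.00). After IRI the 3 RIPC libraries, at 840 to 1370 CPM, lay above both control libraries at 742 and 806 CPM, as 6.41% of genes did with groups of this size, and Bax was the other member to do so, at 36.1 to 85.3 CPM against 10.6 and 34.5 CPM. Trp53 in PMNs gave -0.35 ± 1.96 after sham surgery, 1.11 ± 2.05 after IRI and 0.38 averaged (95% interval -2.81 to 3.57, adjusted p = 1.00). After IRI, omitting IRI control replicate 1 gave 0.13 and omitting replicate 2 gave 6.57. For Cdkn1a after sham surgery, omitting sham control replicate 1 gave 1.80 and omitting replicate 2 gave -0.81.

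In TECs, Cdkn1a gave -1.57 ± 0.85 after sham surgery (adjusted p = 0.708), -0.07 ± 0.93 after IRI (adjusted p = 1.00) and -0.82 averaged (95% interval -2.15 to 0.51, adjusted p = 0.815). Trp53 averaged 40.3 CPM in both groups after sham surgery, and gave -1.11 ± 1.13 after IRI and -0.56 averaged (95% interval -2.19 to 1.07, adjusted p = 0.975). After sham surgery all 10 members had a negative sign, with a median log2 difference of -1.15 where the median of all genes was 0.21. This pattern rested on replicate 1 of the sham control group: without it, 7 of 10 members were negative with a median of -0.34, and Cdkn1a turned to 0.60. After IRI 5 of the 10 had a positive sign. The intervals are wide, and a p above the threshold does not show that RIPC left these genes as they were.

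The reads of Cdkn1a were also divided by transcript, a choice made after the values were seen. The annotation gives 2 main starts: the transcript Cdkn1a-202 begins at chr17:29090979, directly downstream of the full p53 site printed above, and Cdkn1a-201 begins at chr17:29093769. These 2 transcripts also differ at the 3′ end, chr17:29099701 for Cdkn1a-202 and chr17:29100722 for Cdkn1a-201. The share of Cdkn1a-202 may follow either difference, and the start was not tested apart from the 3′ end. A further transcript, the noncoding Cdkn1a-204, begins at chr17:29090976, and its reads count only in the total. The upstream-start transcript below means Cdkn1a-202 alone, so its share is not that of all reads from the upstream start. The share of Cdkn1a reads that the authors' quantification assigned to Cdkn1a-202 was 22.9, 0, 23.0, 9.04 and 6.31% in the 5 PMN libraries after sham surgery. After IRI it was 26.6, 42.0, 38.7, 36.4 and 40.9%. The groups did not overlap: the mean was 36.9% ± 6.15 (SD, n = 5) after IRI and 12.2% ± 10.3 (SD, n = 5) after sham surgery, and an exact two-sided permutation test gave p = 0.00794, the smallest value that 5 against 5 libraries allow (0.0318 after Benjamini-Hochberg adjustment over 4 tests).

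In TECs the same share was 31.6, 18.2, 0, 0, 0 and 0% after sham surgery and 46.9, 29.9, 36.6, 6.58 and 43.6% after IRI. The sham library at 31.6% was again replicate 1 of the sham control group. The means were 32.7% ± 16.0 (SD, n = 5) and 8.30% ± 13.5 (SD, n = 6), with p = 0.0260 in an exact two-sided permutation test (0.0519 adjusted over 4 tests) and p = 0.0159 without that library. RIPC and control differed by 2.81 percentage points in PMNs (exact permutation p = 0.771) and by -10.9 percentage points in TECs (exact permutation p = 0.390). The assignment is an estimate: only 48 of the 873 stretches of 50 bases in the upstream-start transcript are found in no other transcript. The 5 libraries at 0% had between 638 and 1450 Cdkn1a reads, and the library with the fewest, 515, gave 18.2%. Of the 3547 stretches of this length in all Cdkn1a transcripts, 8.49% are shared with other genes, mainly with AC167363.2 on the opposite strand, which had between 0 and 653 reads. Without strand, the reads of both cannot be told apart.

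**Figure D4:**
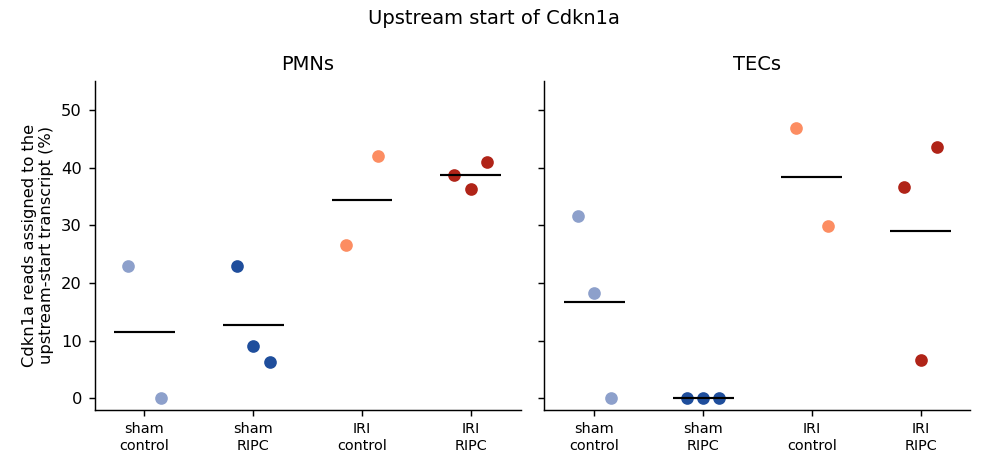
Share of Cdkn1a reads assigned to Cdkn1a-202 (percent), by library and group, for PMNs and TECs. This transcript has the upstream start and also an earlier 3′ end than Cdkn1a-201. Reads of Cdkn1a-204, which also begins at the upstream start, count only in the total. Each point is a library and the line is the group mean. In PMNs the 5 IRI libraries lie at 26.6 to 42.0% and the 5 sham libraries at 0 to 23.0%, and in TECs 4 of 6 sham libraries lie at 0.

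A list of 32 other genes of the p53 pathway (regulators, damage kinases and further targets) was examined in the same fits. Between PMNs and TECs, 2 of 32 were called, both lower in PMNs, against 6.87% of all genes tested, a similar share. The first was Perp, a desmosomal protein of epithelia and effector of p53-dependent apoptosis (log2 fold change -6.12, adjusted p = 0.0163 by edgeR). The other was Aen, an exonuclease of apoptosis (log2 fold change -2.05, adjusted p = 0.0390 by edgeR). In every other comparison 0 were called. Between IRI and sham surgery, 5 of 30 tested in PMNs and 3 of 31 in TECs had an unadjusted p under 0.05, beside 11.8% and 15.0% of all genes, and their median log2 differences were 0.99 and -0.08 beside -0.01 and 0.15 over all genes. A list of 12 cell cycle genes that are repressed through p21, among them Cdk1, Ccnb1 and Mki67, had no call in any of the 14 comparisons. Its members with an unadjusted p under 0.05 numbered 0 of 11 in PMNs and 0 of 12 in TECs between IRI and sham surgery, with median log2 differences of 1.64 and 0.47.

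The genes whose levels followed Trp53 or Cdkn1a most closely were ranked by Pearson's r of log2(CPM + 1), as a description over 10 PMN or 11 TEC libraries. Sham and IRI libraries of unequal depth were pooled, and the part of surgery and depth in r was not tested. For Cdkn1a in PMNs the closest genes were Entpd1, Zfp36 and Bcl2l11 (r = 0.988, 0.985 and 0.982), and in TECs Tnfrsf12a, Sphk1 and Utp23 (r = 0.974, 0.966 and 0.966). For Trp53 they were Gstm5, Vmn2r9 and Mrps11 in PMNs (r = 0.961, 0.956 and 0.935) and Pgpep1, Aph1c and Fam136a in TECs (r = 0.945, 0.937 and 0.931). Among the members, Trp53inp1, Btg2 and Sesn2 were nearest to Cdkn1a in PMNs (r = 0.894, 0.889 and 0.870), and Gdf15 was nearest in TECs (r = 0.868). Between Trp53 and Cdkn1a r was -0.626 in PMNs and -0.427 in TECs.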

How the data were processed

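The authors trimmed single-end reads of 50 bases with Trim Galore 0.6.4 and quantified them with Salmon 1.0.0 against Gencode vM23 (mm10), and deposited estimated counts per transcript, TPM values and effective lengths in 2 files per library. The estimated counts deposited are not normalized. TPM values deposited by the authors were averaged over both files and used for levels between genes. Estimated counts were summed over both files and over the transcripts of a gene (Gencode M21 of GRCm38, 139864 of 140748 transcripts matched) and rounded. Like the study, the fits excluded allosomal and mitochondrial genes. The main test was the quasi-likelihood test of edgeR 4.0.16 (R 4.3.3) with TMM normalization and filterByExpr, one mean per group, fitted per cell type or to all 21 libraries, with Benjamini-Hochberg adjustment over all genes tested and a threshold of 0.05. DESeq2 1.42.0 was an alternative. Standard errors were derived from the F statistic and the fitted difference. Tests were checked on simulated counts. Other settings were other size factors, filters, files, a length offset, robust dispersion, fits of only the groups compared, omission of single libraries and a replicate block. Same-numbered libraries of different groups of a cell type did not deviate together (r between -0.029 and 0.033 in PMNs, and between -0.131 and 0.170 in TECs), so the numbers were not used to pair them. Whether PMN and TEC libraries came from the same mice was not checked, and the fit of all 21 libraries treats them as independent. The members, lists and tests were chosen with earlier results of these data known. Members were described in every comparison, other listed genes only where called, with at most 5 per direction, and 3 genes were named by likeness among those averaging at least 10 CPM.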

Additional observations from a re-analysis of the deposited data

Results flagged for a closer look

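Within the sham or IRI libraries of a cell type (5 or 6 libraries each), 1 library stood far from the rest by Dixon's criterion in 13 of 40 sets of member values. The criterion assumes normally distributed values, which skewed CPM values with zeros do not follow, and the 40 sets share libraries. The 13 flagged sets are therefore not compared with a rate given by chance. Of these sets, 7 were set by replicate 1 of the sham control group of TECs, which was the high library for Cdkn1a (332 CPM, next highest 57.3), Mdm2 (117 CPM, next 52.5), Gdf15 (145 CPM, next 42.2), Btg2 (526 CPM, next 184), Sesn2 (128 CPM, next 37.8), Trp53inp1 (106 CPM, next 25.0) and Phlda3 (10.4 CPM, next 3.71). In replicate 2 of the same group Ccng1 was the high value (358 CPM, next 161). In PMNs, replicate 3 of the IRI RIPC group was high for Cdkn1a (1370 CPM, next 851) and replicate 1 of the sham RIPC group for Gdf15 (15.1 CPM, next 0.237). Phlda3 was carried by 1 library in TECs after IRI (replicate 1 of the control group, 17.4 CPM, with the other 4 at 0) and, at a few reads, in PMNs after IRI (replicate 1 of the control group, 0.498 CPM) and after sham surgery (replicate 2 of the control group, 0.0930 CPM).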

How the results depend on the processing

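Over 132 combinations of a member and a comparison, 2573 values were recomputed under other settings or without a library. Of these, 2406 kept their direction and their side of an adjusted p of 0.05, 127 changed sign, 35 moved past the threshold and 5 fell behind it. The causes of these changes were not tested. The wide spread between libraries and the few libraries per group limit every comparison.

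The number of members called depended on the test. For IRI against sham surgery in PMNs it was 0 in edgeR, 4 with no filter on low counts, 2 (of 3 tested) with at least 10 counts in every library, 2 by DESeq2, and 0 to 2 when single libraries were left out, the 2 being without replicate 1 of the sham control group. In TECs it was 0 in edgeR, 1 with no filter, 1 (of 7 tested) with at least 10 counts, 2 by DESeq2, 1 with the replicate block and 0 to 2 when single libraries were left out. Leaving out TEC IRI control replicate 1 gave 2 (Cdkn1a and Sesn2), and leaving out TEC sham control replicate 1 or TEC IRI control replicate 2 gave 1 (Cdkn1a). Without RIPC, the count in PMNs was 0 to 1 with single libraries left out, and in TECs 1 by DESeq2. By DESeq2 it was also 1 in the TEC interaction, in TECs for RIPC after IRI and averaged, and in the difference of IRI effects, where no filter also gave 1 (Sesn2). Between PMNs and TECs it was 4 by DESeq2 and 1 to 2 with single libraries left out. Over all genes, edgeR and DESeq2 called 104 and 1942 for IRI in PMNs, 363 and 2234 in TECs, and 2182 and 5389 between PMNs and TECs. Leaving out single libraries gave 5 to 393, 92 to 714 and 1661 to 2370. For the other filters and the replicate block the share of all genes called is not given, so the member counts there lack a background.

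Same-numbered libraries of a cell type did not deviate together, so the replicate block is only a check. With it, the log2 fold change of Cdkn1a for IRI in TECs was 2.90 (adjusted p = 0.0118) and in PMNs 2.07 (adjusted p = 0.317). The sign turned with the block for Ccng1 after IRI in PMNs (0.48) and TECs (0.025), and for RIPC after sham surgery in PMNs for Cdkn1a (0.079) and Trp53 (1.37).

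Of the 127 sign changes, 96 came from leaving out a library and 31 from other settings. Among the latter, Cdkn1a for RIPC after sham surgery in PMNs was 0.072 with DESeq2 size factors and by DESeq2, and 0.101 with a length offset. Cdkn1a for RIPC after IRI in TECs was 0.017 with at least 10 counts. Trp53 for RIPC after sham surgery in TECs was 0.010 and 0.024 in each file alone, 0.042 with a length offset and 0.032 with only the compared groups.

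Leaving out single libraries turned the sign of differences near 0 in the main fit and of some far from it. Log2 fold changes for IRI in TECs then ranged from -0.058 to 0.38 for Bax, -0.033 to 1.47 for Btg2, -0.42 to 0.29 for Ccng1 and -0.22 to 1.80 for Trp53inp1, and in PMNs from -0.54 to 2.16 for Ccng1. The PMN minus TEC difference of Cdkn1a ranged from -1.63 to 0.48. For RIPC, Cdkn1a ranged from -0.81 to 1.80 after sham surgery and -0.19 to 1.11 averaged in PMNs, and from -2.11 to 0.60 after sham surgery, -0.36 to 0.26 after IRI and -1.10 to 0.26 averaged in TECs. Trp53 ranged from -1.25 to 0.40 after sham surgery and -0.10 to 3.12 averaged in PMNs, and from -0.25 to 0.37 after sham surgery in TECs.

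Settings for the share of Cdkn1a reads on the upstream-start transcript Cdkn1a-202 were chosen after seeing the data. The difference between IRI and sham surgery was 21.6 to 27.4 percentage points in PMNs and 20.9 to 31.0 in TECs with single libraries left out. In TECs the exact permutation p was 0.0571 without IRI control replicate 1 or IRI RIPC replicate 3.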
